A study of Mus musculus with 12 samples.

Results

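Imprinted genes were followed as a group of 35 named members, taken from a given list of symbols and matched by symbol to the gene identifiers of a count table of 53715 genes. All 35 were found in the table, and 29 of them had enough counts to enter the tests. On textbook knowledge of the mouse, 24 members are expressed from the paternal allele and 8 from the maternal allele, and 3 (Gnas, Grb10 and Inpp5f) have an imprint that depends on the promoter or the tissue. The counts do not separate the parental alleles, so every value below is the total of both.

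RNA was sequenced from mouse spermatogonia, the mitotically dividing germ cells of the testis. A library held 1000 cells sorted by FACS (fluorescence-activated cell sorting), and its cDNA was made by Smart-seq2, which copies whole transcripts from few cells. The animals were of the C57BL6/129 strain and carried either the wild-type genotype (WT) or a Tet1 knockout (Tet1KO). TET1 is an enzyme that oxidises 5-methylcytosine and takes part in the removal of DNA methylation. The 4 groups were WT at 3 months, Tet1KO at 3 months, WT at 11 months and Tet1KO at 11 months, with 3 libraries each. The labels name neither the knockout allele, nor the surface markers of the sort, nor whether each library had its own animal. The p-values therefore cover the spread between these libraries alone, which may be technical.

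Outside the germ line, imprinted genes carry DNA methylation on a single parental allele at control regions, and this mark sets which allele is transcribed. The allele classes used here refer to that setting, and allele use in these spermatogonia was not measured. In the male germ line the inherited marks are erased in primordial germ cells and paternal marks are laid down before birth, at few control regions such as those of H19-Igf2, Dlk1-Meg3 and Rasgrf1. Most other control regions are methylated in the oocyte and unmethylated in sperm. Many of the genes regulate growth, and several form clusters in which a long noncoding RNA and protein-coding genes are expressed from opposite alleles.

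Promoter sequences are shown for Mest, whose 11-month groups did not overlap, for Peg3, whose window is largely shared with Usp29 although their levels differ widely, and for Meg3, the best detected gene of a domain with a paternal germ-line mark. They are RefSeq windows of 300 bases on GRCm38.p6 (the mm10 build of the counts), from 250 bases before to 50 bases after the start, printed 5′ to 3′ on the strand of the gene. Capitals mark TGCCGC or its reverse complement GCGGCA, the hexamer bound, when methylated, by the imprint-keeping factor ZFP57. Where a gene had several windows, one with the most hexamers was printed, so the hexamers shown follow from that choice. The printed Mest window (chr6:30737800-30738099, plus strand) held 2 such hexamers and 17 CpG sites. Another Mest window (chr6:30733256-30733555) held 8 CpG sites and no hexamer. The printed Meg3 window (chr12:109540746-109541045, plus strand) held 1 hexamer and 13 CpG sites. Another Meg3 window (chr12:109545148-109545447) held 1 CpG site and no hexamer. The Peg3 window (chr7:6730370-6730669, minus strand) held 13 CpG sites and no hexamer, and shared 263 bases with the window of the divergently transcribed Usp29 (chr7:6730333-6730632, plus strand).
Mest: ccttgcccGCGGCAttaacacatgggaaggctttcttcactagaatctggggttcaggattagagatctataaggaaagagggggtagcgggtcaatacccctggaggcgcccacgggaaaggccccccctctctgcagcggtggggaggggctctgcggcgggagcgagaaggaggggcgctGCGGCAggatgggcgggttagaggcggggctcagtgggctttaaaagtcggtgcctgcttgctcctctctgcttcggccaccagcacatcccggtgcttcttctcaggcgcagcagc
Meg3: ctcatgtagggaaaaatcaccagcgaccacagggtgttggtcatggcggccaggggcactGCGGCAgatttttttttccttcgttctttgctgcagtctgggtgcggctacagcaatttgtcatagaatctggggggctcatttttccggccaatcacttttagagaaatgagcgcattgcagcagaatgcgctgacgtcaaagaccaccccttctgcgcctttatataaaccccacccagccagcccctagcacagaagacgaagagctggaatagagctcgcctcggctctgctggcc
Peg3: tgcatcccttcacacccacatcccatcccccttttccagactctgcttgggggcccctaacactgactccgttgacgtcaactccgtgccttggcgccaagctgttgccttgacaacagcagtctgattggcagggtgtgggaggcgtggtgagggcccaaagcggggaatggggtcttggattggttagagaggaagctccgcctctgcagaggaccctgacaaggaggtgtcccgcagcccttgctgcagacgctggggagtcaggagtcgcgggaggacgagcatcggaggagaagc
RefSeq windows were found for 29 of the members, 45 windows in all. The hexamer, on either strand, was in 10 of these 45 windows (22.2%) and in 11.6% of all 32851 promoter windows of that length. The median number of CpG sites was 11 in the member windows and 7 in all windows. The hexamer was found in windows of 9 members, namely Mest, Nap1l5, Nnat, Zim1, Snrpn, Igf2, Plagl1, Grb10 and Meg3. A match is a description of the letters only, and binding and methylation were not measured.

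Total counts per library ran from 8325159 to 18223645, and 3 counts, the limit that a count of 0 allows, corresponded to 0.162 to 0.402 CPM (counts divided by the TMM-scaled library size). This limit covers counting error only. Tet1 had 15, 16 and 0 counts in the WT libraries of 3 months and 6, 11 and 18 in the Tet1KO libraries of that age, while the WT libraries of 11 months had 1, 16 and 5 and the Tet1KO libraries 1, 17 and 5 (exact two-sided permutation p = 0.9 at both ages, where 0.1 is the smallest p possible). At these counts, and with the deleted part of the gene not named, Tet1 did not check the genotype labels. The germ cell genes Ddx4 and Dazl were abundant in every library, with means of 316 and 2053 CPM. The 9 Leydig cell markers summed to 8.34 to 29.2 CPM: Cyp17a1 had 1 count over all libraries, Star had 601 counts spread over all 12, and 192 of the 242 counts of Insl3 were in Tet1KO replicate 2 of 3 months. The 19 summed Sertoli markers lay between 370 and 867 CPM and 17 summed leukocyte markers between 90.7 and 1103 CPM. Replicate 1 of WT and replicate 2 of Tet1KO at 3 months stood apart on the first principal component of all tested genes, which carried 39% of the variance. In such sorted bulk samples, fewer cells of a type and less RNA per cell cannot be told apart.

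The imprinted genes spanned the range from well expressed to barely detected. Levels between genes are given as CPM, scaled with TMM factors, per kilobase of exon and averaged over the 12 libraries. Impact, an inhibitor of the translation-repressing kinase GCN2, was highest at 14.2, followed by Snrpn at 14 and the phosphoinositide phosphatase gene Inpp5f at 10.4. Phlda2, Igf2r, Cdkn1c and Grb10, all restrainers of growth, followed at 6.24, 4.61, 4.07 and 4.05 CPM per kilobase. These 7 genes lay above 3.38, the median over all 19815 tested genes, and 19 members lay above 1 CPM per kilobase. The lowest members were Rtl1, Magel2 and Dio3, at 0.0026, 0.0037 and 0.013 CPM per kilobase. In this order of 35 genes, all 34 neighbouring pairs overlapped in their ranges over libraries, so that the order holds between distant members and not between adjacent ones.

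**Figure D1:**
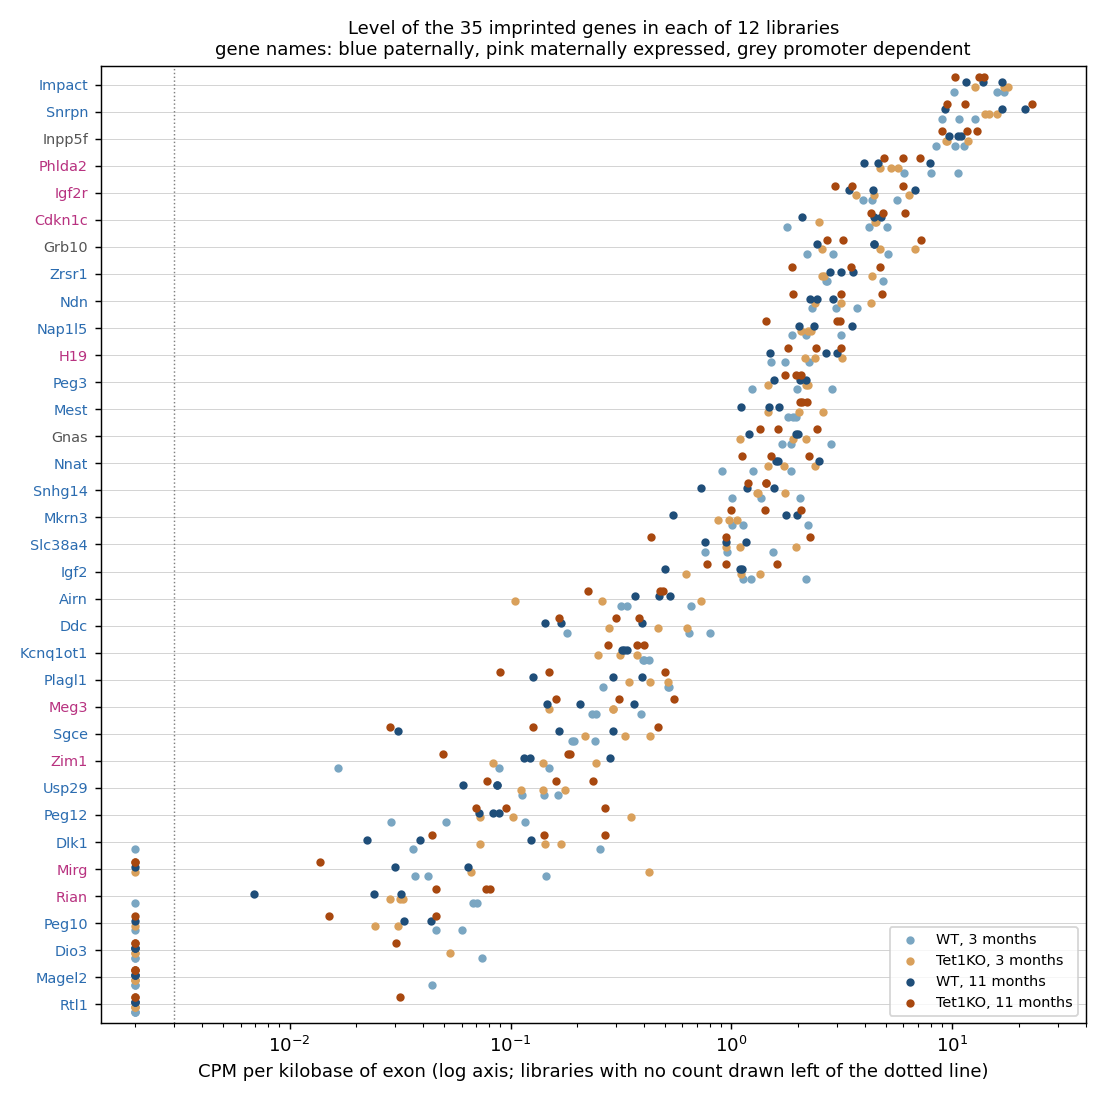
Level of each of the 35 imprinted genes (vertical axis) as CPM per kilobase of exon on a log axis, with 1 point per library coloured by group and libraries without a count drawn left of the dotted line. Impact, Snrpn and Inpp5f were highest, with means of 14.2, 14 and 10.4 CPM per kilobase, and the points of the 4 groups lie among each other for most genes.

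28 of the 35 members had counts in all 12 libraries. Their spread between libraries was close to that of other genes, with a median coefficient of variation over the 12 libraries of 31.6% for the 29 tested members and 30.3% for all tested genes. Inpp5f (12.5%) and Kcnq1ot1 (15.6%) varied least, and Sgce (60.7%) and Rian (65.2%) were among the most variable tested members. The 6 members that did not enter the tests were Peg12, Mirg, Peg10, Dio3, Magel2 and Rtl1. Of these, Peg12 had 43 counts over all libraries, Peg10 24, Dio3 5, and Magel2 and Rtl1 2 each.

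Among the paternally expressed members, Impact (chr18:12972252-12992948) had 54.5, 59.0 and 35 CPM in WT replicates 1, 2 and 3 and 43.5, 58.5 and 61.2 CPM in Tet1KO of 3 months. At 11 months Impact had 57.5, 39.4 and 47.4 CPM in WT and 47.5, 45.2 and 35.2 CPM in Tet1KO. The groups overlapped at both ages, and the highest library was 1.75 times the lowest. Averaged over both ages, the log2 fold change of Tet1KO against WT for Impact was -0.02, with a 95% interval from -0.37 to 0.33.

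The Snrpn domain on chromosome 7, the mouse counterpart of the Prader-Willi region, held genes of widely differing levels. Snrpn (chr7:59982495-60140219), which encodes a core protein of spliceosomal particles, had 19.4, 27.3 and 23.2 CPM in WT and 30.4, 31.5 and 34.5 CPM in Tet1KO of 3 months. Each of these Tet1KO libraries lay above each WT library of that age. At 11 months Snrpn had 36.1, 45.9 and 20.0 CPM in WT and 49.4, 24.6 and 20.5 CPM in Tet1KO, and the groups overlapped. Of the exon bases of Snrpn, 27.3% are shared with the readthrough model Gm38393 and 10% with Snurf on the same strand, and fragments there were counted for each gene. Ndn, a member of the MAGE family, was at 3.01 CPM per kilobase, below Snrpn in 12 of 12 libraries. The ubiquitin ligase gene Mkrn3 was at 1.33 and the long noncoding host of the region's small nucleolar RNAs, Snhg14, at 1.36 CPM per kilobase. Of the exon bases of Snhg14, 6.91% lie opposite Ube3a, itself at 12.8 CPM per kilobase. Counting ignored strand, so fragments there were counted for both, and their part in the Snhg14 level was not tested. Magel2, another MAGE gene that lies between Ndn and Mkrn3, had counts in 1 library only, WT replicate 2 of 3 months. Peg12, beyond Mkrn3, was at 0.116 CPM per kilobase, and Mkrn3 was above Peg12 in all 12 libraries.

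At the Peg3 domain, Peg3 (chr7:6703892-6730431), which encodes a zinc finger protein, had 16.5, 26.4 and 38.1 CPM in WT and 29, 19.5 and 29.4 CPM in Tet1KO of 3 months. At 11 months Peg3 had 28.9, 20.6 and 27.1 CPM in WT and 27.4, 23.2 and 26.1 CPM in Tet1KO. The lowest and the highest library were both WT at 3 months, and all groups overlapped. Usp29, a ubiquitin protease gene that starts in the promoter window shared with Peg3, was far lower: per kilobase, Peg3 was 15.1 times Usp29 and exceeded it in 12 of 12 libraries. The maternally expressed neighbour Zim1 was likewise below Peg3 in 12 of 12 libraries, with a ratio of means of 14.1. Of the exon bases of Usp29, 14.3% lie opposite Zim3 and cannot be told apart from it, as counting ignored strand.

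Mest (chr6:30723547-30748465), which encodes an alpha/beta hydrolase and is a marker of mesoderm, had 7.11, 7.70 and 7.51 CPM in WT and 10.2, 7.98 and 5.77 CPM in Tet1KO of 3 months. At 11 months Mest had 4.35, 5.83 and 6.47 CPM in WT and 8.07, 8.64 and 8.19 CPM in Tet1KO, and the Tet1KO libraries all lay above the WT libraries. Copg2, at 7.43 CPM per kilobase against 1.86 for Mest, shares 23.1% of the exon bases of Mest on the opposite strand. Counting ignored strand, so fragments there were counted for both genes. At 11 months Copg2 had 36.1, 33.8 and 35.4 CPM in WT and 39.6, 36.4 and 42.3 CPM in Tet1KO, also without overlap. The part of Copg2 fragments in the Mest values was not tested. Nap1l5 and Zrsr1 are both retrogenes set into the intron of a host gene. Their levels were 2.43 and 3.27 CPM per kilobase, and the groups overlapped for each at both ages. Of the exon bases of Zrsr1, 9.17% lie opposite Commd1, itself at 27.4 CPM per kilobase. Fragments there were counted for both, and their part in the Zrsr1 level was not tested. Nnat, Slc38a4 and Plagl1, which encode a neuronal proteolipid, an amino acid transporter and a zinc finger regulator of other imprinted genes, were at 1.68, 1.15 and 0.345 CPM per kilobase. At the Sgce-Peg10 pair, Sgce (epsilon-sarcoglycan) exceeded the retrotransposon-derived Peg10 in 11 of 12 libraries, with a ratio of means of 9.03 per kilobase. Ddc, the aromatic amino acid decarboxylase gene, was at 0.379 CPM per kilobase, 10.7 times below the adjacent Grb10.

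H19 and Igf2 share a control region that carries a paternal mark and, outside the germ line, are expressed from opposite alleles. H19 (chr7:142575529-142578143), a noncoding RNA, had 3.70, 5.54 and 4.29 CPM in WT and 7.75, 5.88 and 5.29 CPM in Tet1KO of 3 months. At 11 months H19 had 3.66, 7.35 and 6.58 CPM in WT and 4.43, 5.93 and 7.69 CPM in Tet1KO. The 3-month groups of H19 overlapped in that WT replicate 2 lay above Tet1KO replicate 3, and the 11-month groups overlapped widely.
The growth factor gene Igf2 (chr7:142650766-142666816) had 7.03, 12.4 and 6.44 CPM in WT and 6.30, 3.56 and 7.69 CPM in Tet1KO of 3 months. At 11 months Igf2 had 6.25, 2.86 and 6.36 CPM in WT and 4.43, 9.24 and 5.43 CPM in Tet1KO. The groups overlapped at both ages. Per kilobase H19 was above Igf2 in 12 of 12 libraries, with a ratio of means of 2.03. For Igf2, 62.8% of exon bases are shared with the readthrough model Gm49394 on the same strand, and these fragments were counted for both.

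Next to it lies the Kcnq1 domain, where, outside the germ line, the paternally expressed noncoding RNA Kcnq1ot1 silences maternally expressed genes in cis. Kcnq1ot1 (chr7:143203458-143296549) had 36.9, 37.2 and 39.4 CPM in WT and 34.8, 23.1 and 29.2 CPM in Tet1KO of 3 months. At 11 months Kcnq1ot1 had 30.3, 31.2 and 29.7 CPM in WT and 25.7, 37.4 and 34.7 CPM in Tet1KO. The WT libraries of 3 months were thus above the Tet1KO libraries of 3 months and above the WT libraries of 11 months without overlap.
Phlda2 (chr7:143501545-143503150), a pleckstrin-homology gene that restrains placental growth, had 11.9, 6.77 and 8.99 CPM in WT and 5.89, 6.36 and 5.29 CPM in Tet1KO of 3 months. At 11 months Phlda2 had 4.48, 5.13 and 8.88 CPM in WT and 5.48, 6.73 and 8.02 CPM in Tet1KO. The 3-month groups did not overlap, with WT higher, and the 11-month groups did.
The cell cycle inhibitor gene Cdkn1c was at 4.07 CPM per kilobase, and Gm44732 lies opposite 30.7% of its exon bases. Per kilobase, Cdkn1c was 11.7 times Kcnq1ot1, whose annotated length spans its whole unspliced transcript.

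Igf2r (chr17:12682406-12769664), the receptor that takes IGF2 to the lysosome, had 37.0, 40.7 and 52.9 CPM in WT and 41.5, 34.7 and 60.2 CPM in Tet1KO of 3 months. At 11 months Igf2r had 64.0, 41.2 and 32.1 CPM in WT and 56.4, 27.6 and 33.2 CPM in Tet1KO. The groups overlapped at both ages. The 3 highest libraries of Igf2r were also the 3 highest in the summed level of 10 marker genes of differentiating spermatogonia, at 1800, 1941 and 1981 CPM, against 1258 to 1778 CPM in the other libraries. Of these 3 sums, Stra8 alone gave 968, 1126 and 1137 CPM. Kit, another of the 10 markers, was highest in Tet1KO replicate 1 and WT replicate 2 of 3 months, at 110 and 109 CPM. Whether stage makeup has a part in the spread of Igf2r was not tested. The antisense noncoding RNA Airn, which silences the paternal Igf2r allele in somatic tissue, was at 0.413 CPM per kilobase, below Igf2r in 12 of 12 libraries.

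In the Dlk1-Dio3 domain on chromosome 12, the maternally expressed noncoding RNA Meg3 (chr12:109541001-109571726) was the best detected gene. Meg3 had 4.23, 7.08 and 4.43 CPM in WT and 5.27, 5.28 and 2.69 CPM in Tet1KO of 3 months. At 11 months Meg3 had 2.65, 3.73 and 6.58 CPM in WT and 2.89, 5.63 and 9.94 CPM in Tet1KO, and the groups overlapped at both ages. Per kilobase, Meg3 was 6.71 times Rian, which follows it on the same strand and hosts small nucleolar RNAs.
Rian had 1.29, 1.23 and 0 CPM in WT and 0.517, 0.593 and 0.577 CPM in Tet1KO of 3 months. At 11 months Rian had 0.126, 0.583 and 0.439 CPM in WT and 1.48, 1.41 and 0.835 CPM in Tet1KO, and the Tet1KO libraries were all higher.
Mirg, a microRNA host further along that strand, had 92 counts in all, of which 57 were in Tet1KO replicate 2 of 3 months, a library that stood apart. The paternally expressed Dlk1, a noncanonical ligand of Notch, was at 0.109 CPM per kilobase, and Rtl1 and the deiodinase gene Dio3 had 2 and 5 counts over all libraries.

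**Figure D2:**
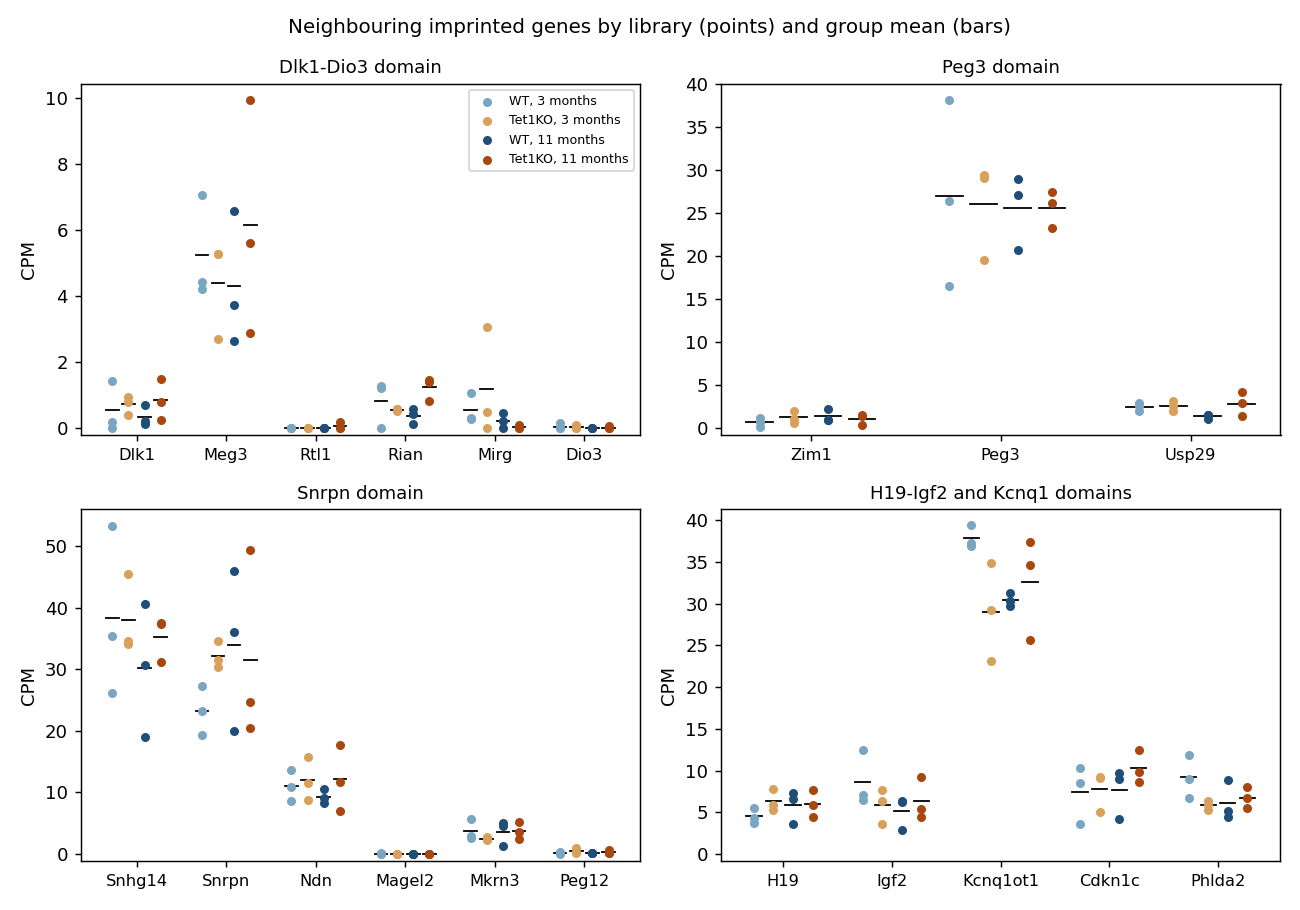
CPM of neighbouring imprinted genes in 4 panels for the Dlk1-Dio3, Peg3, Snrpn, and H19-Igf2 and Kcnq1 domains, with 1 point per library and a bar at each group mean. At 3 months the WT libraries lay at 36.9 to 39.4 CPM for Kcnq1ot1 against 23.1 to 34.8 CPM in Tet1KO, and Magel2, Rtl1 and Dio3 lay at or near 0 in every group.

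Of the promoter-dependent members, Inpp5f and Grb10 lay above the median level of tested genes per kilobase and Gnas, at 1.84, below it. Inpp5f (chr7:128611328-128696425) had 70.5, 85.9 and 93.8 CPM in WT and 97.4, 77.9 and 78.9 CPM in Tet1KO of 3 months. At 11 months Inpp5f had 88.0, 90.5 and 80.5 CPM in WT and 75.0, 96.9 and 107 CPM in Tet1KO. The groups overlapped, and the log2 fold change for Inpp5f averaged over both ages was 0.07, with a 95% interval from -0.19 to 0.32, so that a 2-fold difference in either direction lies outside the interval. Grb10, an adaptor that damps insulin receptor signalling, ranged 3.29-fold between libraries and the groups overlapped. Gnas, the gene of the stimulatory G protein alpha subunit with several imprinted promoters, ranged 2.59-fold. The counts per gene cannot say which promoter of these genes was in use.

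Tet1KO against WT at 3 months showed no imprinted gene past the threshold. By edgeR's quasi-likelihood test with Benjamini-Hochberg adjustment at 0.05, 0 of the 29 tested members and 0 of all 19815 genes (0%) were called. At an unadjusted edgeR p under 0.05 there were 0 members, against 225 of all genes (1.14%), and DESeq2 called 2 genes and limma-voom 0, none a member. Snrpn was higher in all Tet1KO than in all WT libraries, and Kcnq1ot1 and Phlda2 were lower. Such separation was found in 6.94% of all tested genes, 3.32% upward and 3.62% downward, so 3 of 29 members is near the background. Of the members Kcnq1ot1 ranked first by edgeR p, with a log2 fold change of -0.38 ± 0.18 (SE, 95% interval -0.78 to 0.01, adjusted p = 1). Phlda2 followed at -0.66 ± 0.33 (interval -1.37 to 0.06) and H19 at 0.48 ± 0.35 (interval -0.28 to 1.25), both with an edgeR adjusted p of 1.

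Higher and lower members were balanced at 3 months, with 15 of 29 higher in Tet1KO and a median log2 fold change of 0.02, against 46.8% higher and a median of -0.02 over all tested genes. Paternally expressed members were higher in 9 of 19 and maternally expressed ones in 4 of 7. With library totals alone in place of TMM factors, 18 of 29 were higher. The summed Sertoli markers were 867, 405 and 613 CPM in WT and 409, 434 and 384 CPM in Tet1KO of 3 months. Within each genotype of 3 months the libraries stood in the same order for Phlda2 as for these markers. At 11 months the order was reversed in both genotypes, with Sertoli sums of 578, 527 and 417 CPM in WT and 423, 381 and 370 CPM in Tet1KO. Of the 19 Sertoli genes, 0 to 1 had no count in a WT library and 1 to 2 in a Tet1KO library of 3 months. Sox9 had counts in all 12 libraries, with 51 of its 147 in WT replicate 1 of 3 months. It had only 1 count in WT replicate 3 at each age and 2 in Tet1KO replicate 3 of 3 months. Amh, another of the Sertoli genes, had 70 counts in all and 0 in Tet1KO replicate 2 at both ages. The part of Sertoli RNA in the Phlda2 values was not tested. With both libraries that stood apart left out, Snrpn, Dlk1 and Sgce were higher and Kcnq1ot1, Zrsr1, Mkrn3 and Phlda2 lower without overlap, and with so few libraries 13.4% of all genes were higher and 14.3% lower in the same way.

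At 11 months the comparison of genotypes again gave no call by edgeR, with 0 of 29 members and 0 of 19815 genes (0%) past the threshold. By unadjusted edgeR p under 0.05 there were 0 members and 326 genes (1.65%), and DESeq2 called 3 genes and limma-voom 0, none a member. Mest and Rian were higher in all Tet1KO libraries than in all WT libraries, a separation that 5.36% of all tested genes had, 2.82% upward and 2.54% downward. First by edgeR p were Usp29, at a log2 fold change of 1.0 ± 0.46 (SE, 95% interval -0.01 to 2.0, adjusted p = 1), and Mest, at 0.58 ± 0.27 (interval -0.0047 to 1.17, adjusted p = 1). For Rian, which has few counts, the value was 1.68 ± 0.97 (interval -0.46 to 3.81, edgeR adjusted p = 1).

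Of the 29 tested members, 21 were higher in Tet1KO at 11 months, against 53.8% of all tested genes, and the median log2 fold change was 0.11 against 0.02. These were 13 of 19 paternally expressed, 5 of 7 maternally expressed and 3 of 3 promoter-dependent members. Replicate numbers were taken to pair the libraries of this age because same-numbered libraries deviated together in these data. No label states such a pairing. Mest, Meg3, Dlk1 and Rian were higher in Tet1KO in 3 of 3 pairs and Nnat was lower in 3 of 3. Of all tested genes, 12.8% were higher and 11.1% lower in 3 of 3 pairs, 23.8% in all, so 5 of 29 members is no more than the background. Mest differed by 0.88, 0.56 and 0.34 on the log2(CPM + 0.1) scale in the 3 pairs. Without Tet1KO replicate 3 of 11 months, 13 of 30 tested members were higher, so the excess rests on that library. Peritubular myoid markers, summed over 9 genes of which at most 1 had no count in a library, were lower in Tet1KO (41.4 to 73.3 CPM) than in WT (83.2 to 297 CPM) at 11 months, and their part in the member values was not tested.

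**Figure D3:**
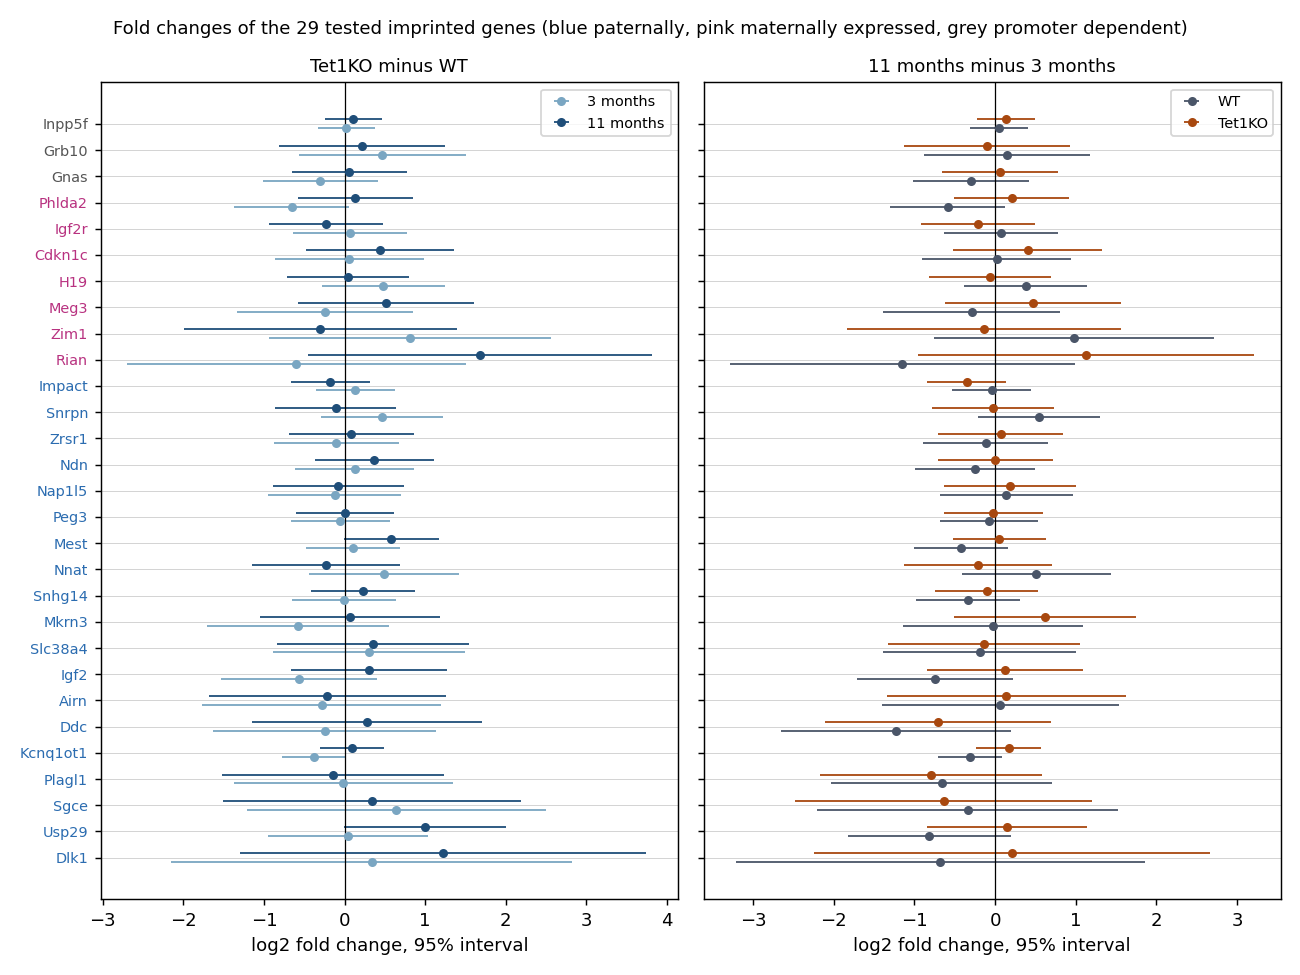
Log2 fold changes (horizontal axis) with 95% intervals of the 29 tested imprinted genes, for Tet1KO minus WT at each age (left) and for 11 minus 3 months in each genotype (right), with genes grouped by expressed allele. Every interval reaches 0, and the narrowest belong to Inpp5f and Kcnq1ot1.

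Age within WT gave the most separated members. Mest, Usp29, Igf2 and Kcnq1ot1, all paternally expressed, were lower in every WT library of 11 months than in every WT library of 3 months. Non-overlap of this kind was also the most frequent over all genes, at 11.5% of tested genes, 6.12% lower and 5.42% higher. No member was called and 0 of 19815 genes (0%) passed by edgeR. With unadjusted edgeR p under 0.05 there were 0 members and 1124 genes (5.67%), and DESeq2 and limma-voom called 0 genes. Usp29 had 2.04, 2.56 and 2.95 CPM at 3 months and 1.58, 1.57 and 1.1 CPM at 11 months in WT. By edgeR p the order was Ddc, at a log2 fold change of -1.23 ± 0.65 (SE, 95% interval -2.65 to 0.19), Phlda2 at -0.59 ± 0.33 (interval -1.30 to 0.13) and Usp29 at -0.81 ± 0.46 (interval -1.82 to 0.20). Each had an edgeR adjusted p of 0.774.

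Of the 19 tested paternally expressed members, 15 were lower and 4 higher at 11 months in WT, with a median log2 fold change of -0.25. Without WT replicate 2 of 3 months 12 were lower and 7 higher. The sample code of that library has another prefix than those of the other WT libraries. Among maternally expressed members 3 of 7 were lower. Of the 36 tested imprinted genes outside the members, described below, 26 were lower and 10 higher. That list was not split by expressed allele, so it cannot say whether the lean is particular to paternally expressed genes. Over all tested genes 43.6% were higher, and the median was -0.06. Summed over all 24 paternally expressed genes, the level was 247 ± 18.9 CPM (SD, n = 3) at 3 months and 227 ± 22.7 CPM at 11 months in WT, and the libraries overlapped. Without both libraries that stood apart, the same 4 genes were lower without overlap, and Zrsr1 and Zim1 were higher, where 9.36% of all genes were lower and 8.94% higher.

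Within Tet1KO, age gave 15 of 29 members higher at 11 months, against 48.0% of all tested genes, with a median log2 fold change of 0.05 against -0.01. Rian alone was separated, higher at 11 months, where 6.20% of all genes were without overlap, 3.10% higher and 3.09% lower. By edgeR, 0 of 29 members and 0 of 19815 genes (0%) were called, with 0 members and 462 genes (2.33%) at an unadjusted p under 0.05. DESeq2 called 5 genes and limma-voom 0, none a member. Impact ranked first, with a log2 fold change of -0.35 ± 0.23 (SE, 95% interval -0.85 to 0.14, edgeR adjusted p = 1). Plagl1 was at -0.79 ± 0.63 (interval -2.17 to 0.59) and Mkrn3 at 0.62 ± 0.51 (interval -0.51 to 1.75), with the same adjusted p. Mest, Usp29, Igf2 and Kcnq1ot1, separated by age in WT, had log2 fold changes of 0.05, 0.14, 0.12 and 0.17 in Tet1KO. Both age comparisons share libraries with the genotype comparisons, so these values are not independent of those above.

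The difference between the Tet1KO effects at 11 and at 3 months was tested directly. It was past the threshold for 0 of 29 members and 0 of 19815 genes (0%), with 0 members and 311 genes (1.57%) at an unadjusted edgeR p under 0.05, and DESeq2 and limma-voom called 0 genes. Kcnq1ot1 came first, at 0.48 ± 0.26 on the log2 scale (SE, 95% interval -0.08 to 1.04), then Phlda2 at 0.79 ± 0.46 (interval -0.22 to 1.80) and Rian at 2.28 ± 1.37 (interval -0.71 to 5.26), each with an edgeR adjusted p of 1. Of the members, 20 of 29 had a positive value, against 55.6% of all tested genes. Without Tet1KO replicate 3 of 11 months, paternally expressed members had 10 positive and 9 negative values, against 14 and 5 with it. Promoter-dependent members then had 1 positive and 2 negative, and maternally expressed ones stayed at 4 and 3. The excess thus rests largely on that library.

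Averaged over both ages, Tet1KO against WT gave 17 of 29 members higher, against 51.2% of all tested genes, and by edgeR 0 members and 0 of 19815 genes (0%) were called. At an unadjusted edgeR p under 0.05 there were 0 members and 283 genes (1.43%), and DESeq2 called 2 genes and limma-voom 0, none a member. Mest was first at a log2 fold change of 0.34 ± 0.19 (SE, 95% interval -0.07 to 0.76), Usp29 next at 0.52 ± 0.32 (interval -0.19 to 1.23) and Phlda2 the third at -0.26 ± 0.23 (interval -0.76 to 0.24), each with an edgeR adjusted p of 1. With library totals alone in place of TMM factors, 20 of 29 members were higher. For 19 of 29 members the 95% interval of this average lay within 1 log2 unit of 0, so that a change of 2-fold or more was outside it. Such intervals were narrow for Peg3 (-0.46 to 0.41) and Kcnq1ot1 (-0.42 to 0.14). They were wide for Rian (-0.95 to 2.02), which had few counts, and for Sgce (-0.82 to 1.80), which ranged 16.3-fold between libraries.

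Summed over the 24 paternally expressed genes, the level was 249 ± 2.07 CPM (SD, n = 3) in Tet1KO at 3 months and 237 ± 2.62 CPM in Tet1KO at 11 months. The 8 maternally expressed genes summed to 72.1 ± 2.20 CPM in WT and 72.9 ± 7.10 CPM in Tet1KO of 3 months, and to 71.7 ± 13.1 and 70.7 ± 11.9 CPM in the groups of 11 months. Igf2r makes up most of that second sum. The group means of each sum were thus near each other, while the marker sums of somatic cells differed more between libraries.

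**Figure D4:**
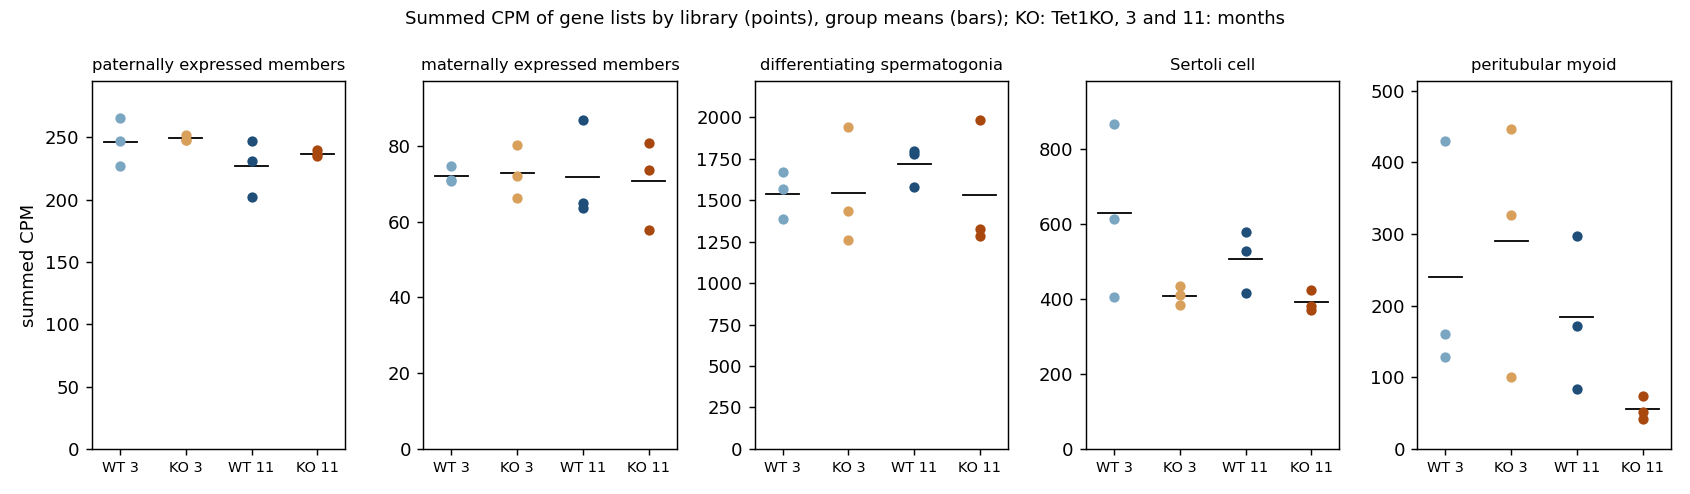
Summed CPM per library (points) and group mean (bars) for the paternally and maternally expressed members and for marker lists of differentiating spermatogonia, Sertoli cells and peritubular myoid cells, each axis starting at 0. The paternal sum lay between 202 and 265 CPM in every library, while the myoid sum ran from 41.4 to 447 CPM.

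Other imprinted genes, outside the 35, gave the same lack of calls. Of 47 listed, 45 were found, 36 were tested and 0 were called by edgeR in any of the 6 comparisons. The highest per kilobase were the tetraspanin gene Cd81 at 57.3, the matrix proteoglycan gene Dcn at 52.0, the retrogene Mcts2 at 41.1, Snurf at 34.8, whose exon bases all lie within Snrpn, and the copper metabolism gene Commd1 at 27.4 CPM per kilobase. Dcn, also a gene of connective tissue, ranged from 0.817 to 617 CPM between libraries. Tspan32, a tetraspanin gene with 1 to 4 counts per WT library and 11 to 19 per Tet1KO library at 11 months, had a log2 fold change of 3.03 ± 0.81 there (SE, 95% interval 1.25 to 4.80, edgeR adjusted p = 1). Gatm, of creatine synthesis, was at -1.29 ± 0.44 in Tet1KO against WT at 3 months (interval -2.25 to -0.32, edgeR adjusted p = 1), and the glutaminyl cyclase gene Qpct at -1.63 ± 0.68 for age in WT (interval -3.12 to -0.13, edgeR adjusted p = 0.774). These 3 were the other imprinted genes with an unadjusted edgeR p under 0.05 in any comparison.

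The genes that write and keep imprints were, in contrast to many imprinted genes, abundant in part. Of 26 such factors 23 were tested, 0 were called and 0 had an unadjusted edgeR p under 0.05 in any comparison. The chromatin remodeller Hells, the histone demethylase Kdm1b, the corepressor Trim28, the histone methyltransferase Setdb1 and the zinc finger factor Yy1 were at 71.1, 57.1, 35.9, 18.2 and 18.2 CPM per kilobase. Of the exon bases of Kdm1b, 9.19% lie opposite Dek. Fragments there were counted for both, and their part in the Kdm1b level was not tested. Zfp57, whose product binds the hexamer printed above, and Dnmt3l, the cofactor of de novo methylation, were at 0.436 and 0.351 CPM per kilobase. Both were highest in WT replicate 1 and next highest in Tet1KO replicate 2 of 3 months, the libraries that stood apart. Of 12 listed regulators of the imprinted gene network 11 were found and tested, and 0 had an unadjusted edgeR p under 0.05.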

How the data were processed

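RNA-seq of 12 libraries was analysed from a table of raw counts deposited by the authors, 1 whole number per gene and library. Per the file headers, counts came from featureCounts 1.6.2 on GENCODE vM17, ignoring strand, for fragments of mapping quality 30 or more, and a fragment overlapping several genes was counted for each. The build was mm10, and HISAT2 and SAMtools (versions not given in the sources used here) are listed, per the submitters' processing notes. Reads of antisense or overlapping genes therefore cannot be told apart. Symbols came from GENCODE vM21 names for 53620 of 53715 genes.

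All libraries entered 1 edgeR 4.0.16 model (R 4.3.3) with 1 mean per group, TMM factors and the filterByExpr filter, which left 19815 genes. Each comparison was a two-sided contrast by the robust quasi-likelihood F test with Benjamini-Hochberg adjustment over all tested genes at 0.05. Standard errors were derived from the F statistic, and 95% intervals from them. The procedure was tested on simulated counts. CPM per kilobase used the deposited exon length.

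The members and gene lists, and which allele expresses each, were chosen with earlier results of these data known. Fold changes are given for members past the threshold and, where fewer than 3 had an unadjusted p under 0.05, for the 3 with the smallest. The 5 highest members per kilobase and H19, Igf2, Meg3, Snrpn, Peg3 and Igf2r are given per library. Kcnq1ot1, Mest, Rian, Usp29 and the other values were chosen after seeing them. Counts of libraries within a group differed beyond sampling noise (chi-square divided by its degrees of freedom 9.86 or more), and each was counted as 1 replicate. Same-numbered WT and Tet1KO libraries deviated together at 11 months (correlations of 0.371, 0.167 and 0.332 across genes) and not at 3 months (-0.589, -0.182 and 0.296), so the numbers were taken to pair the 11-month libraries. Alternatives used DESeq2 1.42.0, limma-voom (limma 3.58.1), other scalings, filters and thresholds, the compared groups alone, a replicate block and libraries left out. Leaving out sets of 2 libraries, and the block within 11 months, were chosen after seeing the data. The sample codes of WT replicate 2 and Tet1KO replicate 1 of 3 months start with DY, those of all other libraries with AK. No label says what these letters stand for. As both DY libraries are of 3 months, the code is partly confounded with age.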

Additional observations from a re-analysis of the deposited data

How the results depend on the processing

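No member was called in any of 119 alternative fits of the 6 comparisons, and 115 of these called 0 genes in all. The exceptions were fits with DESeq2, which called 2 genes (S100a8 and S100a9) for Tet1KO against WT at 3 months, 3 (these and Tpm2) at 11 months, 5 (Tpm2, Cald1, Hspa1a, Gm20481 and Slc38a5) for age in Tet1KO and 2 (S100a8 and S100a9) averaged over both ages. None of these is an imprinted member, all are named because their number is small, and the cause of the difference from edgeR was not tested. With a replicate block the count of called genes was 0 in each comparison, also with the replicate block within 11 months, where 404 genes had an unadjusted p under 0.05 against 326 without it, so the block changed no call. Leaving out each library in turn gave 0 calls throughout, with 159 to 512 genes at an unadjusted p under 0.05 for Tet1KO against WT at 3 months, 323 to 714 at 11 months, 446 to 1607 for age in WT, 292 to 771 for age in Tet1KO, 243 to 434 for the average and 233 to 645 for the difference of effects.

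The 18 fold changes given for members with the smallest p kept their sign in all 339 alternatives, and their lowest adjusted p was 0.655. For Usp29 at 11 months the log2 fold change was 1.33 without Tet1KO replicate 1 of 11 months. Plagl1 for age in Tet1KO moved from -0.79 to -1.81 without Tet1KO replicate 3 of 11 months. In replicates 1, 2 and 3 of Tet1KO at 11 months, Usp29 had 1.42, 2.91 and 4.26 CPM and Plagl1 1.17, 0.703 and 3.93 CPM. Both omissions thus made the difference larger, and leaving out another library can make it smaller. Mirg, left out by the filter, had a log2 fold change of -5.39 and an adjusted p of 1 by DESeq2 for age in Tet1KO, where 57 of its 92 counts came from 1 library. Depth limits the low members, since 3 counts are 0.162 to 0.402 CPM, above the mean of Rtl1, Magel2 and Dio3 in every group.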
